A study of Mus musculus with 4 samples.

Results

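The genes described here are 10 genes of plasma cells and antibody secretion, Igha, Jchain, Mzb1, Xbp1, Sdc1, Prdm1, Irf4, Tnfrsf17, Derl3 and Fkbp11, out of 18193 genes that a probe set of the array names alone. They were matched by gene symbol to the probe sets of the array, and all 10 were found, with 21 probe sets in all. For each gene the probe set of highest mean signal is used, and the other probe sets are given beside it. The arrays measured total RNA from C57BL/6 mice, all of which had liver injury from carbon tetrachloride, a liver poison given 30 times at 1 ml/kg. Over the last 7 days, one group of 2 samples (G-CSF replicates 1 and 2) was given human recombinant G-CSF at 100 µg/kg, the growth factor (granulocyte colony-stimulating factor) under which the marrow makes neutrophils. The other group of 2 samples (PBS replicates 1 and 2) was given the vehicle, phosphate-buffered saline (PBS) that held 0.1% of mouse albumin. The labels name liver in one field and, in another, cells derived from bone marrow, and they give no sort, no age and no sex. Whether each sample is a different animal is not stated, so the p-values measure only the spread between these arrays, which may be technical. Hepatocyte markers were abundant on all 4 arrays, with Alb signals of 43301 to 52315.

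Plasma cells are the end stage of the B cell lineage and secrete antibody. IRF4 and BLIMP1, the product of Prdm1, drive the change from B cell to plasma cell, and XBP1 enlarges the endoplasmic reticulum (ER) so that it can fold and export immunoglobulin. IgA, the antibody of mucosal surfaces, is joined into dimers by the J chain and is carried into bile and across epithelia by the polymeric immunoglobulin receptor. Several of these genes are not particular to plasma cells: hepatocytes express Xbp1 and Sdc1, bile duct cells express Sdc1, and T cells and macrophages can express Prdm1 and Irf4.

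The immunoglobulin genes of the group were abundant on 3 of the 4 arrays and low on PBS replicate 1. On that array all 8 genes that could be tested had their lowest signal, whereas 47.0% of all 12187 tested genes had their lowest signal there. The other PBS array, PBS replicate 2, had the highest signal of 6 of the 8. Irf4 and Tnfrsf17 lay near background and allow no order of the arrays. No gene of the group passed the test for a difference between G-CSF and PBS (limma with Benjamini-Hochberg adjustment, adjusted p of 0.988 to 0.996 over the 8 tested), and 0 of all 12187 tested genes passed it (0% called). An unadjusted p below 0.05 was reached by 1 of the 8, Fkbp11, and by 429 of the 12187. The smallest two-sided p that exact permutation could give here, with 2 arrays in each group, is 0.333.

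PBS replicate 1 stood apart over the whole array. Its Pearson correlation with the other arrays over the tested genes was 0.813 to 0.844, against 0.939 to 0.974 among the other three. The summed signal of 17 T cell markers was 55493 there and 3842 to 5591 elsewhere. A large part of that sum came from Dntt, at 20056 there and 17.2 to 94.0 elsewhere. Rag1, a recombinase of developing lymphocytes, is also 1 of the 17 and had a signal of 6016 on PBS replicate 1 and 1.61 to 2.20 on the others. Both are named here after their values were seen. The 11 hepatocyte markers summed to 225333 there against 325217 to 379381, and all 11 had their lowest signal there. The 3' to 5' signal ratio of the Gapdh control was 14.8 to 15.7 with PBS and 19.1 to 20.2 with G-CSF. That of the Actb control was 9.88 to 11.2 with PBS and 12.6 to 13.7 with G-CSF, so both ratios were higher with G-CSF. The part of these differences in the results below was not tested, and the results on the members are given against both PBS arrays and against each of them alone.

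**Figure D1:**
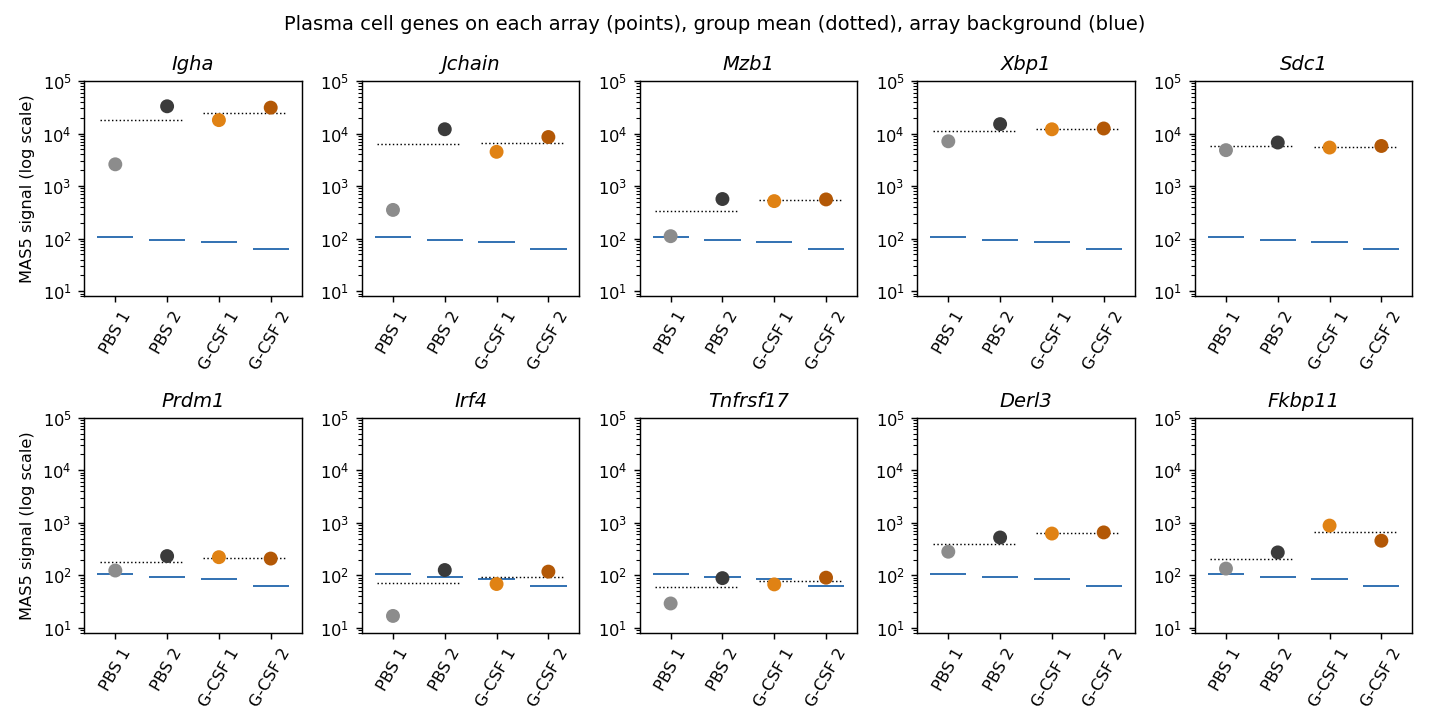
MAS5 signal (log axis) of the 10 plasma cell genes on each of the 4 arrays, 1 panel per gene; points are arrays, dotted lines are the means of the 2 arrays of a group and blue bars are the background of each array. PBS replicate 1 is the lowest point for the 8 tested genes, of which Derl3 and Fkbp11 have both G-CSF points above both PBS points; Irf4 and Tnfrsf17 lie near the background bars.

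The stretches before the transcription starts of 3 members are shown because XBP1 and ATF6, transcription factors of the unfolded protein response (UPR), act through short elements in such regions. Jchain had the widest range over the arrays, and Derl3 and Fkbp11 were the members whose groups did not overlap. Each is the 250 bases before the start on the strand of the gene, from RefSeq on GRCm38.p6. They lie at chr10:75893148-75893397 (plus strand) for Derl3, chr5:88527898-88528147 (minus strand) for Jchain and chr15:98728199-98728448 (minus strand, the more upstream of 2 starts) for Fkbp11. Capitals mark ACGTG or its reverse CACGT, the core of the UPR element, and the fixed bases of the ER stress element, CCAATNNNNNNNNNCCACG or its reverse.
Derl3: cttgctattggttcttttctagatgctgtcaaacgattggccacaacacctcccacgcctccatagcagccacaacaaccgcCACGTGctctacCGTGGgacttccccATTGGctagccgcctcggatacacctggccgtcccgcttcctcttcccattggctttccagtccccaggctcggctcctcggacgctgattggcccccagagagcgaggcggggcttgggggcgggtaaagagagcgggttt
Jchain: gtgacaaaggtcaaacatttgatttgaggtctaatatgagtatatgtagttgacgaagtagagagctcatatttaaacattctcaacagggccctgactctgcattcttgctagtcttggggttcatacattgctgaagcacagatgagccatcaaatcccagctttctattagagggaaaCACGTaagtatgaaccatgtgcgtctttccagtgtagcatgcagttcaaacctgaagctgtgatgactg
Fkbp11: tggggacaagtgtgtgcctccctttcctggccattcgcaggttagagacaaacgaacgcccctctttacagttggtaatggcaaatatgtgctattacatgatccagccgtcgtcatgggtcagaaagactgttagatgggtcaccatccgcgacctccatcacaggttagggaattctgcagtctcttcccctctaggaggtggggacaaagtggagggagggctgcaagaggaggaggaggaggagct

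In the Derl3 stretch the ER stress element matched once, on the minus strand of the gene, from −156 to −138 relative to the start. Among 32851 promoter stretches of the same length in the table, 37 held that element, or 0.113%. The core ACGTG lay in the Derl3 and the Jchain stretch, the former with overlapping matches on both strands, and 16.6% of all stretches held it. The Fkbp11 stretch shown held neither. Promoter entries were matched for 8 of the 10 members, Igha and Mzb1 being the others. Of these 8, 2 held the core and 1 held the ER stress element. A pair of GAAA with 2 bases between them, a pattern bound by IRF and BLIMP1 proteins, searched on both strands, was found in 1 of the 8, Tnfrsf17, and in 2.98% of all stretches. These matches describe letters only.

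Igha encodes the constant region of the IgA heavy chain. Its signal was 2597 on PBS replicate 1 and 33051 on PBS replicate 2, and 18034 and 31161 on G-CSF replicates 1 and 2. The G-CSF values thus lay between the PBS values, and the PBS arrays were 12.7-fold apart while the G-CSF arrays were 1.73-fold apart. The group means were 17824 ± 21534 (SD, n = 2) with PBS and 24597 ± 9282 (SD, n = 2) with G-CSF. On the log2(signal + 23) scale used for all tests, where 23 is the added pseudocount, the difference of G-CSF minus PBS was 1.35 ± 1.20 (SE, n = 2 arrays per group; limma adjusted p = 0.988). Against PBS replicate 1 alone it was 3.18, and against PBS replicate 2 alone it was −0.48. A second probe set read 1913 and 37788 on the PBS arrays and 14225 and 27674 on the G-CSF arrays. The other probe set read 912 and 22839 on the PBS arrays and 5267 and 15953 on the G-CSF arrays. The order of the arrays was the same for all 3 probe sets, with PBS replicate 1 lowest and PBS replicate 2 highest. Bulk arrays cannot tell fewer plasma cells from less immunoglobulin RNA per cell, here or for any gene below.

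Jchain, the joining chain of IgA dimers and IgM pentamers, showed the widest range of the group. Its single probe set read 352 on PBS replicate 1 and 12085 on PBS replicate 2, and 4491 and 8592 on G-CSF replicates 1 and 2. Both G-CSF arrays again lay between the PBS arrays, which were 34.4-fold apart. The log2 difference was 1.55 ± 1.62 (SE, n = 2 arrays per group; limma adjusted p = 0.988), or 4.06 against PBS replicate 1 alone and −0.96 against PBS replicate 2 alone. Of the 12187 tested genes, 1 had a larger log2 difference of PBS replicate 2 over PBS replicate 1 than Jchain, and 5 had a larger one than Igha. Between the G-CSF arrays, Jchain was 1.91-fold higher on replicate 2 than on replicate 1, as Igha was by 1.73-fold.

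Among tested genes with a probe set that names them alone, the patterns most like these were those of another immunoglobulin gene and a few others. Probe sets that list several genes, which include the strongest kappa probe sets, were not searched, so the ranks below leave them out. By the root mean square difference of centred log2 values over the 4 arrays, the nearest genes outside the group to Igha were Igkv8-30, a kappa variable segment (0.24), Hspa1b, a heat shock protein (0.26), and Lysmd2 (0.30). Those nearest to Jchain were Igkv8-30 (0.59), Hspa1b (0.68) and Igfals, a liver carrier of insulin-like growth factors (0.69). Igha lay nearer to Jchain than all of these (0.49), but 18 genes lay nearer to Igha than Jchain did. Lysmd2 and Igfals were at background on PBS replicate 1. The likeness rests on 4 arrays and is a description.

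Mzb1, an ER co-chaperone of marginal zone B cells and plasma cells, read 111 on PBS replicate 1, just above that array's background of 106, and 567 on PBS replicate 2. With G-CSF it read 518 and 557. PBS replicate 2 and both G-CSF arrays thus lay close together, with 5.10-fold between the PBS arrays. Its log2 difference was 0.99 ± 0.74 (SE, n = 2 arrays per group; limma adjusted p = 0.988), or 2.06 against PBS replicate 1 alone and −0.076 against PBS replicate 2 alone.

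The regulators of the plasma cell state were lower in signal or varied less. Prdm1, which encodes the repressor BLIMP1, read 123 and 232 on the PBS arrays and 221 and 208 on the G-CSF arrays. PBS replicate 1 was low and the other arrays were close to each other, and the log2 difference was 0.30 ± 0.43 (SE, n = 2 arrays per group; limma adjusted p = 0.988), 0.70 against PBS replicate 1 alone and −0.10 against PBS replicate 2 alone. Irf4, the transcription factor of plasma cell fate, read 16.8 and 126 on the PBS arrays and 68.3 and 118 on the G-CSF arrays, above background on 1 array of each group. Its mean signal lay below the limit of 95.0 for testing, so it is given by its signals only, and a second Irf4 probe set was at background on all 4 arrays with signals of 44.7 to 60.9. All 4 probe sets of Xbp1 were above background on all 4 arrays. The strongest read 7130 and 15132 on the PBS arrays and 12057 and 12489 on the G-CSF arrays. Again PBS replicate 1 was lowest and PBS replicate 2 highest, 2.12-fold apart, with a log2 difference of 0.24 ± 0.44 (SE, n = 2 arrays per group; limma adjusted p = 0.988). It was 0.78 against PBS replicate 1 alone and −0.30 against PBS replicate 2 alone. The other 3 Xbp1 probe sets gave differences of 0.18, 0.30 and 0.47 and were lowest on PBS replicate 1 too, by 2.18-fold to 2.24-fold against PBS replicate 2. The arrays do not report the splicing that activates XBP1.

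Of the surface proteins, Tnfrsf17 encodes BCMA, the receptor that keeps plasma cells alive. It read 29.1 and 88.4 on the PBS arrays and 67.2 and 90.1 on the G-CSF arrays, above background only on G-CSF replicate 2, and was not tested. Sdc1 encodes syndecan 1 (CD138), a proteoglycan used to identify plasma cells that is also made by epithelia and hepatocytes. It read 4833 and 6749 on the PBS arrays and 5419 and 5802 on the G-CSF arrays, and the groups overlapped. Its log2 difference of −0.03 ± 0.33 (SE, n = 2 arrays per group; limma adjusted p = 0.996) was the smallest of the 8, with 0.21 against PBS replicate 1 alone and −0.27 against PBS replicate 2 alone. It also had the smallest gap between the PBS arrays, 1.40-fold. The suffix of the probe set (x) marks a design that can match other transcripts. Another pair above the limit, without such a suffix, gave −0.29 and −0.17. The former read 1569 and 1671 on the PBS arrays and 1294 and 1343 on the G-CSF arrays. On it both G-CSF arrays thus lay below both PBS arrays, with G-CSF replicate 1 lowest.

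Derl3 and Fkbp11, of the secretory machinery, were the only tested members with both G-CSF arrays above both PBS arrays. Derl3, a channel component that passes misfolded ER proteins out for degradation, read 282 and 524 on the PBS arrays and 624 and 656 on the G-CSF arrays. The log2 difference was 0.70 ± 0.41 (SE, n = 2 arrays per group; limma adjusted p = 0.988), 1.12 against PBS replicate 1 alone and 0.28 against PBS replicate 2 alone. Fkbp11, a prolyl isomerase of the ER that is abundant in plasma cells, read 134 and 273 on the PBS arrays and 885 and 455 on the G-CSF arrays. It too had no overlap, and it was the only one of the 8 with its highest signal on G-CSF replicate 1. Its log2 difference of 1.61 ± 0.51 (SE, n = 2 arrays per group; limma adjusted p = 0.988) was the largest of the 8. It was 2.07 against PBS replicate 1 alone and 1.16 against PBS replicate 2 alone. The suffix of the probe set (s) marks a design that can match several transcripts, and the 2 other Fkbp11 probe sets were weak, with log2 differences of 0.10 and 0.12, so the larger difference rests on 1 probe set.

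Of the 8, 2 thus had no overlap with G-CSF higher, against 18.6% of all tested genes, and 0 of 8 had both below, against 12.1%. Both G-CSF arrays lay below PBS replicate 2 for 6 of the 8, against 37.5% of all tested genes. PBS replicate 2 was at least 2-fold above PBS replicate 1 for 5 of the 8, against 21.9% of all tested genes. The median log2 difference of the 8 was 0.85, beside 0.07 over all tested genes. It was 1.59 against PBS replicate 1 alone, beside 0.19, and −0.18 against PBS replicate 2 alone, beside 0.00066. The direction of the group as a whole therefore changed with the PBS array used. In the limma fit without PBS replicate 2, 6 of the 8 were called higher with G-CSF (adjusted p from 0.00067 for Jchain to 0.0128 for Derl3), where 22.6% of all tested genes were called higher. In the fit without PBS replicate 1, 0 of the 8 were called, with adjusted p from 0.189 to 0.916, where 2.78% of all tested genes were called higher and 1.45% lower. A fit with 1 PBS array takes that array to vary as the G-CSF arrays do.

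**Figure D2:**
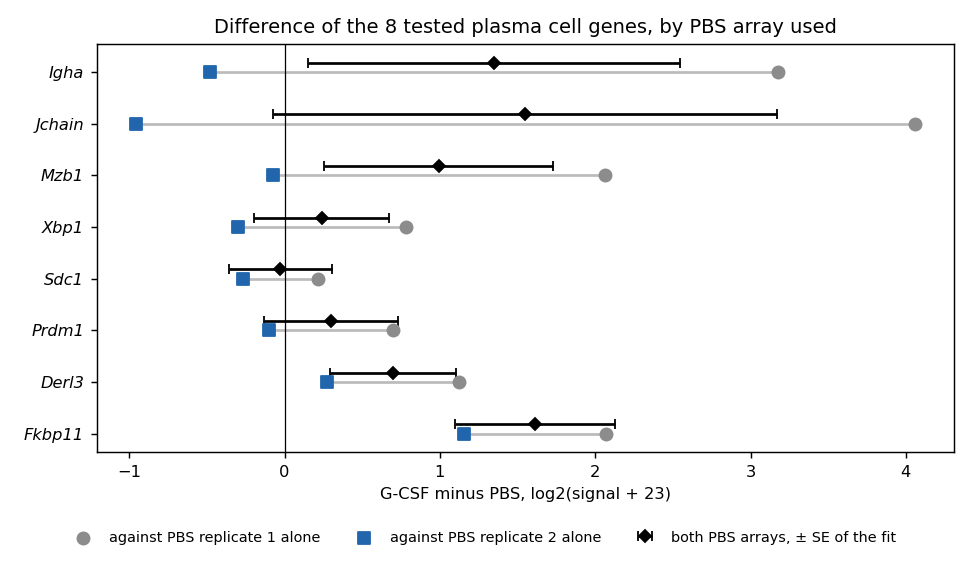
Log2 difference (G-CSF minus PBS, from log2(signal + 23)) for the 8 tested genes; diamonds use both PBS arrays with the SE of the limma fit (2 arrays per group), circles use PBS replicate 1 alone and squares PBS replicate 2 alone. The squares lie below 0 for 6 genes and above 0 for Derl3 (0.28) and Fkbp11 (1.16), while all circles lie above 0.

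Most other antibody probe sets shared the low value of Igha on PBS replicate 1, but not the order of the other arrays. The array holds 56 immunoglobulin probe sets, Igha included, and 23 exceeded the limit for testing. Of the 23, 21 had their lowest signal on PBS replicate 1, against 47.0% of all tested genes. The limit is on the mean over the arrays. Many of the 21 were at background on PBS replicate 1 (13.9 and 22.1 for Iglv1) and passed through the other arrays. For these the limit largely fixed which array was lowest, so the count cannot be weighed against that share. The Igha and the 3 strongest kappa probe sets were above background on every array. Several of the immunoglobulin probe sets list more than 1 kappa or lambda gene, and they are given here only by chain. The 3 strongest kappa probe sets read 1038 to 2033 on PBS replicate 1, 14953 to 18100 on PBS replicate 2, and 11487 to 17180 on the G-CSF arrays. They lay 8.48-fold to 14.9-fold apart between the PBS arrays. Igkv8-30 read 256 and 3022 on the PBS arrays and 1439 and 3912 on the G-CSF arrays, with its highest value on G-CSF replicate 2. Ighv14-2, a heavy chain variable segment, read 99.9 and 405 against 592 and 356, at background on PBS replicate 1 and highest on G-CSF replicate 1. Ighg3, an IgG heavy chain named here after its values were seen, was weaker, with 42.9 and 248 against 199 and 226, and was at background on PBS replicate 1.

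Ighm, the IgM heavy chain of naive B cells and of IgM-secreting cells, differed between its own probe sets. Of its 8 probe sets above the limit, 6 were lowest on PBS replicate 1. Most of these 6 were at background there and passed the limit through the other arrays. One of them read 15.7 and 1835 on the PBS arrays and 2506 and 1175 on the G-CSF arrays. Another of them read 21.6 and 338 on the PBS arrays and 1465 and 5537 on the G-CSF arrays, both G-CSF values being above PBS replicate 2, by 2.99 on the log2 scale on average. Both of these were at background on PBS replicate 1. The strongest, however, was highest on PBS replicate 1, with 3275 and 1825 against 1440 and 1636. A further one read 1028 and 1072 against 884 and 595. For both, the G-CSF arrays lay below both PBS arrays. The probe set next in mean signal, 2034 beside 2044 for the strongest, read 244 and 2913 against 3378 and 1599, with a log2 difference of 1.41. The sign for Ighm therefore depends on which of these stands for the gene. By its strongest probe set the log2 difference of Ighm was −0.66 ± 0.41 (SE, n = 2 arrays per group; limma adjusted p = 0.988), −1.08 against PBS replicate 1 alone and −0.25 against PBS replicate 2 alone. Which part of the IgM transcript each probe set reads was not examined. Of the 7 tested immunoglobulin genes other than Igha, 6 had their lowest signal on PBS replicate 1 and 0 passed the test. Of the 7, 0 had both G-CSF arrays above both PBS arrays and 1, Ighm, had both below (18.6% and 12.1% of all tested genes). On PBS replicate 1, 4 of the 7 were not above background, so differences from that array are not summarised. Their median difference was −0.25 against PBS replicate 2 alone.

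**Figure D3:**
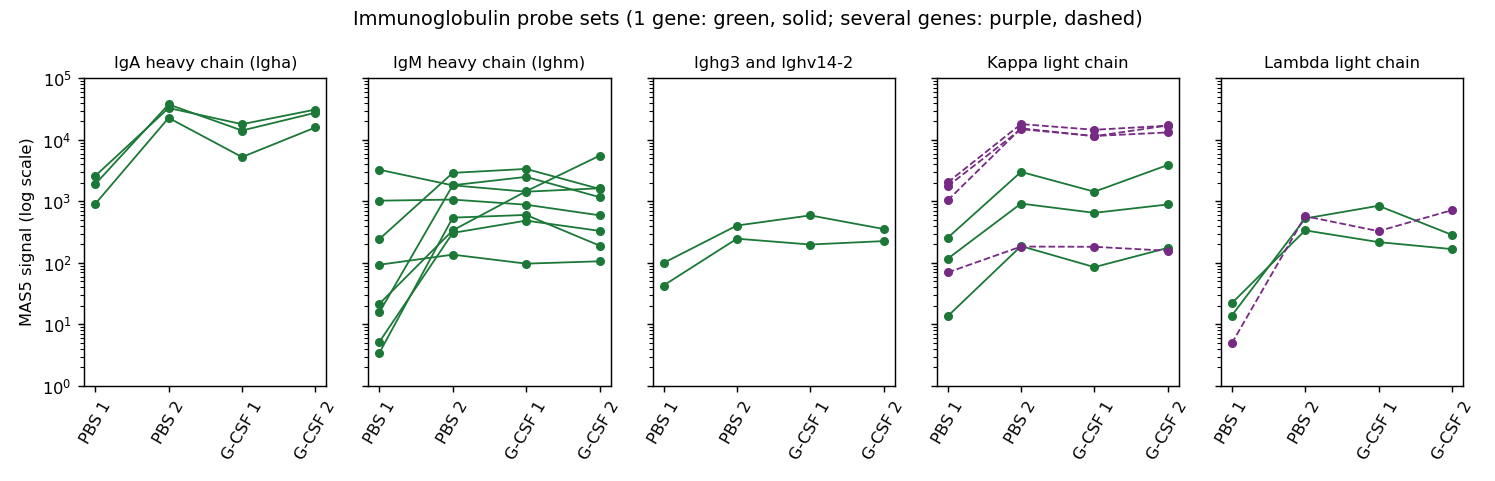
MAS5 signal (log axis) of the 23 immunoglobulin probe sets with a mean signal above 95.0 on the 4 arrays, by chain; each line joins the values of 1 probe set, solid green for a probe set that lists 1 gene and dashed purple for several. All IgA, kappa and lambda probe sets are lower on PBS replicate 1 than on PBS replicate 2, by 12.7-fold to 25.1-fold for IgA, while the strongest IgM probe set reads 3275 and 1825.

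Pigr, the receptor that carries IgA dimers through epithelial cells and hepatocytes into bile, did not follow Igha. Its signal was 3728 and 8432 on the PBS arrays and 3709 and 4299 on the G-CSF arrays. PBS replicate 2 alone was high, and PBS replicate 1 lay at the level of the G-CSF arrays. The log2 difference was −0.49 ± 0.48 (SE, n = 2 arrays per group; limma adjusted p = 0.988), 0.10 against PBS replicate 1 alone and −1.07 against PBS replicate 2 alone. Of the 4 genes of IgA transport and mucosal homing on the list, only Pigr and Vcam1, an adhesion molecule (−0.12), were tested, and neither passed.

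The general machinery of the secretory pathway had a median log2 difference of PBS replicate 2 over PBS replicate 1 of 0.32, beside 0.16 over all tested genes. A list of 64 matched ER genes (chaperones, protein disulfide isomerases, the translocon, signal peptidase, glycosylation and ER export) had all 64 tested, and 0 passed in either direction. Of these, 21 had both G-CSF arrays above both PBS arrays and 0 had both below, against 18.6% and 12.1% of all tested genes. The median log2 difference was 0.30 with both PBS arrays, beside 0.07 over all tested genes. Against PBS replicate 2 alone it was 0.07, beside 0.00066. On PBS replicate 1, 48 of the 64 had their lowest signal, against 47.0% of all tested genes. Hspa5, which encodes the main ER chaperone BiP and was chosen here after its values were seen, read 21681 and 27116 on the PBS arrays and 34049 and 30914 on the G-CSF arrays. The gene with the smallest p was Ero1a, an oxidase that drives disulfide formation, at 912 and 707 on the PBS arrays and 1698 and 1599 on the G-CSF arrays (log2 difference 1.02 ± 0.34, SE, n = 2 arrays per group; limma adjusted p = 0.988). Next came Hyou1, a large ER chaperone, at 0.59, Ddost, a subunit of the oligosaccharyltransferase, at 0.60, and Ppib, a prolyl isomerase, at 0.66, with no overlap of the groups for any of the 4. Promoters were matched for 52 of the 64, and 9 held the ER stress element described for Derl3. These were Hspa5, Hsp90b1, Pdia6, Calr, Canx, Dnajc3, Creld2, Ero1b and Syvn1, and their median difference was 0.20, beside 0.29 for the 43 without it.

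Among 12 sensors and effectors of the unfolded protein response, 0 passed, 4 had both G-CSF arrays above both PBS arrays and 2 had both below (18.6% and 12.1% of all tested genes). The sensor Ern1, which encodes the IRE1 enzyme that splices Xbp1 mRNA, read 1232 and 2664 on the PBS arrays and 2657 and 2401 on the G-CSF arrays, with PBS replicate 1 lowest and PBS replicate 2 highest as for Xbp1. It was chosen after its values were seen. Asns, asparagine synthetase, a target of ATF4, read 173 and 388 on the PBS arrays and 1289 and 892 on the G-CSF arrays (log2 difference 1.95 ± 0.48, SE, n = 2 arrays per group; limma adjusted p = 0.819). Ddit3, which encodes the stress factor CHOP, read 413 and 636 against 1341 and 1001 (1.14 ± 0.38, SE; limma adjusted p = 0.988). For both, the G-CSF arrays lay above both PBS arrays. Ppp1r15a, a phosphatase subunit that restores translation, and Atf6b, a sensor, had differences of 0.57 and 0.49. The median of the 12 was 0.48, or 0.13 against PBS replicate 2 alone.

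Of 16 matched regulators and partners of plasma cell differentiation, 0 passed, 5 had both G-CSF arrays above both PBS arrays and 1 had both below (18.6% and 12.1% of all tested genes). Bcl6, a repressor that holds germinal centre B cells back from the plasma cell fate and is also expressed in neutrophils, read 1306 and 1705 on the PBS arrays and 3919 and 3350 on the G-CSF arrays (log2 difference 1.27 ± 0.34, SE, n = 2 arrays per group; limma adjusted p = 0.961). Mef2c and Spib, B lineage transcription factors, had differences of 0.92 and 0.87 with no overlap. Ets1, a factor of lymphocytes, read 8027 on PBS replicate 1 and 1445 to 1847 on the others (−1.26). The median of the 16 was 0.39, or 0.22 against PBS replicate 2 alone.

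Of 25 matched genes of plasma cell surface, homing and survival, 18 were tested and 0 passed, while 10 had both G-CSF arrays above both PBS arrays and 2 had both below (18.6% and 12.1% of all tested genes). Glipr1 read 1683 and 1743 on the PBS arrays and 4040 and 5330 on the G-CSF arrays (log2 difference 1.43 ± 0.33, SE, n = 2 arrays per group; limma adjusted p = 0.779). Cd44, an adhesion receptor of many leukocytes, read 1626 and 3150 against 5626 and 5596 (1.30 ± 0.43, SE; limma adjusted p = 0.988). Il6ra, a receptor chain for a plasma cell survival cytokine that other leukocytes and hepatocytes also carry, read 63.0 and 376 against 525 and 559, at background on PBS replicate 1, and its difference was 0.50 against PBS replicate 2 alone (limma adjusted p = 0.988 with both PBS arrays). These genes are not particular to plasma cells, and all 12 tested neutrophil markers had both G-CSF arrays above both PBS arrays, their summed signal being 8819 to 26431 with PBS and 224508 to 261988 with G-CSF. The part of neutrophil RNA in these differences was not tested. Cd28, a costimulatory receptor of T cells and long-lived plasma cells, read 1636 on PBS replicate 1 and 15.1 to 106 elsewhere, at background on G-CSF replicate 1 (limma adjusted p = 0.988). The median of the 18 was 0.61, or 0.39 against PBS replicate 2 alone.

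B cell markers, genes of the stage before the plasma cell, were also low on PBS replicate 1. Of 15 tested, 12 were lowest there, against 47.0% of all tested genes. Cr2, Ebf1 and Fcrla were at background there and passed the limit through the other arrays. For these the limit largely fixed which array was lowest. The median log2 difference of PBS replicate 2 over PBS replicate 1 for the 15 was 0.91, beside 1.38 for hepatocyte markers and 0.16 over all tested genes. Ms4a1, which encodes CD20, read 197 and 765 on the PBS arrays and 869 and 541 on the G-CSF arrays. Cd79a, a chain of the B cell receptor, read 108 and 360 against 175 and 237. Of the 15, 0 passed, 7 had both G-CSF arrays above both PBS arrays and 1 had both below (18.6% and 12.1% of all tested genes), and the median difference was 0.73, or 0.0016 against PBS replicate 2 alone. The 4 with the smallest p were Cr2 (33.2 and 94.7 against 200 and 189, at background on PBS replicate 1), Cd37 (0.84), Blnk (1.00) and Spib (0.87). Blk, a kinase of B cells that some T cells also express and that was chosen after its values were seen, read 1882 on PBS replicate 1 and 142 to 181 elsewhere.

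Markers of the other cells that can express members of the group set PBS replicate 1 apart as well. All 7 tested macrophage markers, all 6 tested bile duct markers and all 11 hepatocyte markers were lowest there. Highest there were 14 of 16 tested T cell markers and all 7 cycling cell markers. Of 7 tested dendritic cell markers, 5 were lowest there, and none of these lists held a gene that passed the test. Of all 12187 tested genes, 5722 (47.0%) were lowest there and 4103 were highest there. Several T cell markers, Rag1 among them, were at background on the other arrays and passed the limit through PBS replicate 1. For these the limit largely fixed which array was highest, so the T cell count cannot be weighed against that share. Krt19, a bile duct keratin, read 230 and 473 on the PBS arrays and 408 and 715 on the G-CSF arrays. Alb, the main hepatocyte protein, read 43301 and 46068 on the PBS arrays and 52315 and 46302 on the G-CSF arrays, near the top of the range of each array. Cd3e and Cd247, chains of the T cell receptor complex, read 2157 and 2570 on PBS replicate 1 and 64.3 to 248 and 78.5 to 104 on the others. The part of each cell type in the low values on PBS replicate 1 was not tested.

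**Figure D4:**
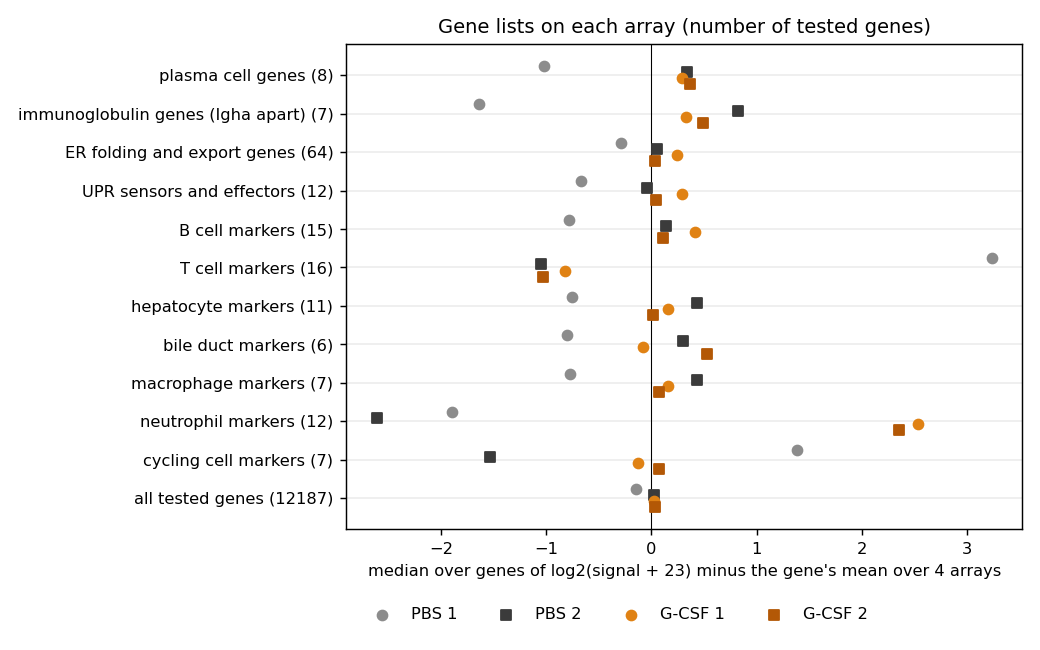
Median over the tested genes of each list of the log2(signal + 23) value minus the gene's own mean over the 4 arrays; each point is 1 array and the number of tested genes stands in parentheses. Plasma cell genes lie at −1.02 on PBS replicate 1 and above 0 on the other arrays, while T cell markers lie at 3.23 on PBS replicate 1. Several T cell markers passed the limit for testing through their signal on PBS replicate 1.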

How the data were processed

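The authors deposited linear intensity values, MAS5 signals per the submitters' processing notes, 1 Affymetrix mouse array of 45101 probe sets per sample. No MAS5 version is named there, and 0 columns lacked a sample. The arrays had already been scaled alike, to a trimmed mean of 500, and were not rescaled. The number of arrays, 2 per group, limits the precision. Gene symbols came from the platform table. Probe sets with several genes (932) or none (9160) and 64 controls were left out, and the probe set of highest mean signal stood for each of the 18193 genes. Genes whose mean exceeded 95.0, the median over probe sets, numbered 12187 and were tested with limma 3.58.1 in R 4.3.3 (lmFit, eBayes with a trend, two-sided) on log2(signal + 23), with Benjamini-Hochberg adjustment over all of them at 0.05. The code of the fit was run on simulated data with the spread of the G-CSF arrays and with changes larger than those of the members. That run checks the code and does not show how the fit performs on these arrays. Background was, on each array, the brightest of 27 controls whose target was not spiked in (106, 94.6, 86.4 and 63.0 on PBS 1, PBS 2, G-CSF 1 and G-CSF 2). The members, the gene lists and the tests were chosen with earlier results of these data known. From each list the text names up to 4 genes with the smallest p, and a set of fixed markers. The immunoglobulin list took all symbols starting with Igh, Igk or Igl, leaving out Igha, Ighmbp2, Igll1 and Iglon5. Some listed genes are not reported here. Alternatives were 2 other scalings, 2 pseudocounts, 2 filters, no trend, other probe set rules, a replicate block and each array left out. Figures were drawn with Python 3.11.15 and matplotlib 3.10.9.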

Additional observations from a re-analysis of the deposited data

How the results depend on the processing

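The alternatives named next kept the direction of the 8 tested genes and called none, where they could be computed. They were quantile normalization, median centring, both other pseudocounts, no filter, the stricter filter and no trend. Also among them were the mean of all probe sets, probe sets with no letter before the ending _at, and the replicate block. The rule on the ending left out the letters a, s and x alike, and it fitted 5 of the 8, without Igha, Derl3 and Fkbp11. Fkbp11 had the widest range over these alternatives, 0.61 to 1.72. Over all tested genes, 0 were called in either direction as reported. Probe sets with no letter before the ending gave 11 higher, and the replicate block gave 89 higher and 3 lower. Same-numbered arrays did not deviate together (correlation −0.038), so the number is not taken as a pairing. Leaving out each array in turn gave 6 to 2753 genes higher and 0 to 1936 lower, 0 to 6 of the 8 plasma cell genes called, a median of −0.18 to 1.59 for them, and 0.072 to 0.47 for the ER genes. The lowest and highest differences were −0.48 and 3.18 for Igha, −0.96 and 4.06 for Jchain, −0.076 and 2.06 for Mzb1, −0.30 and 0.78 for Xbp1, −0.27 and 0.21 for Sdc1, −0.10 and 0.70 for Prdm1, 0.28 and 1.12 for Derl3 and 1.15 and 2.07 for Fkbp11. Each of these negative values came without PBS replicate 1. Sdc1 was also negative with all 4 arrays and without G-CSF replicate 2 (−0.076). The cause was not tested. Irf4 and Tnfrsf17 lay near background and allow no order of the arrays.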
